A study of Macaca mulatta with 27 samples.

Results

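TL2i cells were compared with primed cells of the rhesus macaque to find which genes differed after 1 of the protocols that aim to move pluripotent stem cells from the primed to the naive state. The comparison takes the 3 libraries whose column names carry TL2i and the 6 whose names carry PrimedJ or PrimedK, 9 of the 27 libraries of the series, and all genes of the count tables. The labels describe both groups as rhesus embryonic stem cells (ESCs), the TL2i cells as naive and the others as primed. The reprogrammed line, LyonES-tGFP-(S3), is a single clone obtained by inserting STAT3-ERT2 with a lentiviral vector into LyonES-tauGFP cells, which carry a tauGFP transgene driven by the broadly active CAG promoter. STAT3-ERT2 is STAT3 joined to a ligand-binding domain of the estrogen receptor, so that tamoxifen activates it. TL2i medium combined tamoxifen with the cytokine LIF, an inhibitor of the kinase MEK, and an inhibitor of the kinase GSK3β. TL2i cells formed dome-shaped colonies and were passaged as single cells, whereas primed cells were passaged mechanically in clumps, so the agents and the way of passaging cannot be told apart here. The labels do not say whether the primed libraries come from this clone. The NHSM-v, 4i/L/b, t2iLGöY, and LCDM (EPS) protocols, used below to see where TL2i differs from others, were applied without tamoxifen, and the make-up of their media is not given in the sources used here.

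In the mouse, naive pluripotency is held by LIF, which activates STAT3 through the receptor pair LIFR and gp130 (IL6ST), and by inhibitors of MEK and of GSK3. MEK inhibition blocks the ERK cascade, through which FGF signals push cells toward differentiation, and lowers immediate targets of ERK such as EGR1, the SPRY and DUSP feedback inhibitors, and the ETV factors. GSK3 marks β-catenin for degradation. When GSK3 is inhibited β-catenin accumulates, enters the nucleus, and with the LEF1 and TCF factors turns on genes such as AXIN2. In primate cells the primed state depends on FGF and Nodal-Activin signals, and the naive state is marked by genes such as KLF17, DPPA3, DPPA5, and TFCP2L1. The same Wnt signals also pattern the dorsal and posterior nervous system and the neural crest once cells have left pluripotency.

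Counts per library ranged from 7111886 to 15183387 (median 10606171.5) in primed cells and from 13359671 to 19482749 (median 16354474) in TL2i cells, and between 12332 and 13845 genes had at least 1 count in a primed library against 15295 to 15700 in a TL2i library. Levels are given in counts per 1000000 (CPM) after TMM scaling over the 27 libraries. Before that scaling, 3 counts correspond to 0.198 to 0.422 CPM in a primed library and 0.154 to 0.225 CPM in a TL2i library. Log2 fold changes are TL2i minus primed, with their standard error (SE), and a gene was called when the adjusted p of edgeR's quasi-likelihood test was under 0.05. The labels do not say whether the libraries of a group came from separate cultures, so p-values measure the spread between these libraries, which may be technical. A gene absent from primed cells passes the filter on low counts only when it is present in TL2i cells, so the counts and medians of gene lists below describe the members that passed. For lists whose counts change with it, the counts are also given for the members with at least 10 counts in every library, a filter that leaves out genes absent from either group. RNA came from whole cultures, in which fewer cells of a type and less RNA per cell cannot be told apart.

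The primed libraries fall in 2 sets. ESR1, the estrogen receptor gene whose ligand-binding domain is part of STAT3-ERT2, was counted at 0, 0.863, and 0 CPM in the J libraries and at 355, 399, and 358 CPM in the K libraries. TL2i libraries held 232, 228, and 226 CPM. STAT3 itself stood at 100, 102, and 122 CPM in the J and 175, 216, and 184 CPM in the K libraries. Reads of the transgene may be counted under either symbol, and transgene and endogenous transcripts cannot be told apart. Between the K and J libraries 469 of 12559 genes were called (3.73%). Against the J libraries alone TL2i cells differed in 6764 genes and against the K libraries alone in 8047, beside 7007 against both.

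7007 of 13808 genes tested differed between TL2i and primed cells (50.7%). 3533 were higher in TL2i cells (25.6%) and 3474 were lower (25.2%), and the median log2 fold change of all genes tested was 0.07. Large differences were more often gains, since 282 genes were higher and 85 lower by 5 or more on the log2 scale. In 6338 of the called genes the TL2i and primed libraries did not overlap. 7018 of all genes tested (50.8%) had this property, so a separation of the libraries was common. This share applies wherever libraries are said below not to overlap. The share called was near or under 50.7% in several lists below. It was 38.5% for naive-state, 50% for ERK cascade, 56.2% for Nodal-Activin, and 56.5% for epithelial genes. For mesoderm it was 33.3%, for G1 and S phase genes 56.2%, for glycolysis 57.1%, and for the respiratory chain 47.6%. Counts in these lists do not mark their members as more often changed than other genes.

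The 10 genes with the largest gains, among called genes without overlap whose log2 CPM averaged 3 or more, were CRABP1, NR2F1, UNC5C, COL2A1, LRP2, SDK2, AXIN2, GREB1L, H19, and CRB2. CRABP1, which binds retinoic acid in the cytoplasm, was counted at 1424, 954, and 1250 CPM in the TL2i libraries and at 5.14 to 23.7 CPM (median 9.3) in primed cells (log2 fold change 6.79 ± 0.33 (SE), adjusted p = 1.3e-09). NR2F1, a nuclear receptor of the developing nervous system and neural crest, reached 490, 434, and 453 CPM against 0.76 to 4.58 CPM (median 3.49) (log2 fold change 7.16 ± 0.26 (SE), adjusted p = 9.3e-11). The netrin receptor gene UNC5C stood at 255, 273, and 248 CPM against 0.76 to 4.79 CPM (median 3.54) (log2 fold change 6.42 ± 0.28 (SE), adjusted p = 5.4e-10). Each of these was low in primed cells and abundant in every TL2i library. COL2A1, a fibrillar collagen of cartilage and notochord, held 724, 1029, and 937 CPM in TL2i and 6.21 to 21.4 CPM (median 10.3) in primed libraries, a log2 fold change of 6.27. LRP2, or megalin, an endocytic receptor of neuroepithelium and other epithelia, was at 258, 438, and 347 CPM against 3.42 to 6.01 CPM (median 5.13) (6.13 on the log2 scale). H19, an imprinted noncoding RNA, was at 147, 173, and 173 CPM against 2.68 to 3.77 CPM (median 3.37) (5.62 on the log2 scale). SDK2, a cell adhesion protein, AXIN2, GREB1L, and CRB2, which sets the apical side of epithelia, rose by 5.90, 5.76, 5.67, and 5.33 on the log2 scale.

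**Figure D1:**
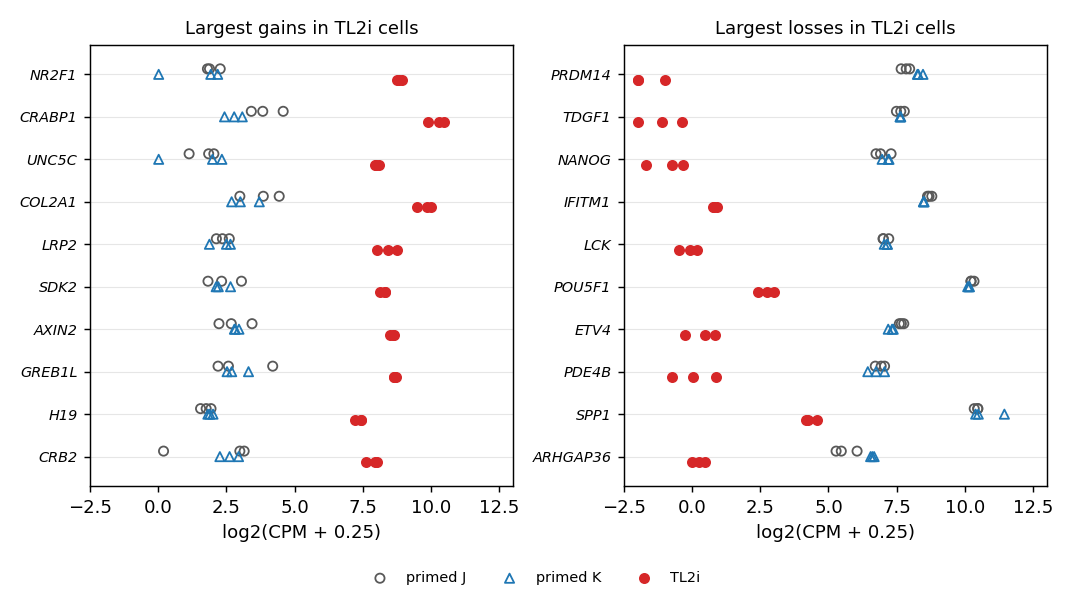
Levels of the 10 genes with the largest gains and the 10 with the largest losses in TL2i cells, in log2 of CPM plus 0.25, with 1 point per library (open circles primed J, open triangles primed K, filled circles TL2i). The genes were chosen among those without overlap, so the 3 TL2i points lie apart from the 6 primed points in every row by that choice. CRABP1 runs from at most 23.7 CPM in primed to at least 954 CPM in TL2i libraries.

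Losses of the same kind were led by genes of the pluripotent state. PRDM14, a factor that sustains pluripotency and the germline program, was counted at 203 to 354 CPM (median 280) in primed cells and at 0.245, 0, and 0 CPM in the TL2i libraries (log2 fold change -11.35 ± 0.41 (SE), adjusted p = 6.9e-11). TDGF1, the coreceptor of Nodal, fell from a primed range of 180 to 220 CPM (median 199) to 0, 0.524, and 0.212 CPM (log2 fold change -9.69 ± 0.32 (SE), adjusted p = 3.4e-11). NANOG stood at 107 to 157 CPM (median 135) in primed and 0.539, 0.0583, and 0.354 CPM in TL2i libraries (log2 fold change -8.64 ± 0.31 (SE), adjusted p = 6.5e-11). All 3 were at or near the floor in TL2i cells. POU5F1, which encodes OCT4, dropped from a primed range of 1104 to 1296 CPM (median 1177) to 7.69, 5.13, and 6.51 CPM (log2 fold change -7.51 ± 0.14 (SE), adjusted p = 1.1e-13). IFITM1, LCK, PDE4B, SPP1, and ARHGAP36 fell by 7.99, 7.61, 7.01, 6.35, and 6.32 on the log2 scale, and the ERK target ETV4 by 7.36. SPP1, a secreted phosphoprotein, was the most abundant of them in primed cells at 1304 to 2807 CPM (median 1427), against 17.8, 23.5, and 18.7 CPM in TL2i cells.

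Of 18 core pluripotency genes found in the tables, all were tested, 0 were called higher and 16 lower, with a median of -3.42. SOX2, the factor that pairs with OCT4 and is also used by neural progenitors, fell less than NANOG and POU5F1, from a primed range of 214 to 337 CPM (median 266) to 88.6, 86.3, and 92.3 CPM (log2 fold change -1.61 ± 0.15 (SE), adjusted p = 1.2e-06). DPPA4 fell from a primed range of 432 to 492 CPM (median 455) to 7.11, 7.75, and 7 CPM (-5.97 on the log2 scale), and L1TD1, an RNA-binding protein of pluripotent cells, from a primed range of 1128 to 1378 CPM (median 1245) to 47.2, 43.6, and 43.4 CPM (-4.82). These were large losses of abundant transcripts. The smaller changes were in SALL4 (-1.94), ZFP42 (-1.54), LIN28A (-1.08), and the surface sialomucin PODXL (-1.08), which all fell but stayed well above the floor, with LIN28A still at 286, 231, and 297 CPM in TL2i cells. LIN28B, at 437, 320, and 349 CPM, and TERT were not called (adjusted p = 0.86 and adjusted p = 0.88), although LIN28B was called lower against the K libraries alone.

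Naive-state genes showed no common direction. Of 20 found, 13 passed the filter on low counts, 2 were called higher, 3 lower, and 8 neither, with a median of 0.94. With all 8 groups in the fit 4 were higher and 3 lower. KLF17, a defining factor of the primate naive epiblast, had no count in any of the 9 libraries, which in TL2i cells allows at most 0.225 CPM before TMM scaling. DPPA5, ARGFX, and FGF4 were at 0 in the 3 TL2i libraries as well. KLF4 was counted at 1.27, 1.75, and 1.49 CPM in TL2i and 0 to 2.43 CPM (median 0.701) in primed cells (log2 fold change 0.86 ± 1.04 (SE), adjusted p = 0.52). TFCP2L1 (adjusted p = 0.65), ESRRB (adjusted p = 0.51), and DPPA3 (adjusted p = 0.28) were not called, their libraries overlapped, and the first 2 were below 1 CPM in TL2i cells. KLF5, at 18.4, 24.5, and 19.7 CPM, was not called either (adjusted p = 0.062), but was called higher with DESeq2, with all 8 groups in the fit, with the filter of 10 counts, against the J libraries alone, and without primed replicate K1. The members called higher were TBX3, at 27.1, 32.7, and 26.4 CPM against 0 to 0.691 CPM (median 0) (log2 fold change 7.34 ± 0.68 (SE), adjusted p = 9.2e-07), and TFAP2C, or AP-2γ, at 54.9, 50.7, and 47.3 CPM against 7.57 to 40 CPM (median 14.3) (log2 fold change 1.41 ± 0.35 (SE), adjusted p = 0.0045). TBX3 is also a Wnt-responsive gene and TFAP2C also a gene of surface ectoderm and trophoblast. TFE3 was called lower, at 51.9, 50.3, and 51.5 CPM against 65.4 to 90.8 CPM (median 78.1) (log2 fold change -0.61 ± 0.12 (SE), adjusted p = 0.001), and the imprint guardian ZFP57 fell by 3.17 and DPPA2 by 5.09 on the log2 scale. The study read TFAP2C, KLF4, and TFE3 by immunostaining and reported them stronger in TL2i cells. That is a measure of protein, which RNA counts do not give.

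Primed-state genes fell in most cases, with 16 of 20 tested lower and 1 higher (median -1.87), or 2 higher and 17 lower against the J or the K libraries alone. SFRP1, a secreted Wnt antagonist, dropped from a primed range of 285 to 415 CPM (median 332) to 15.1, 12.8, and 9.76 CPM, NLGN4X by 4.03, FGF2 by 3.64, OTX2 by 2.62, and THY1 by 2.50 on the log2 scale. Cadherin CDH2 was the member that rose (0.93). Most tested members of the core and primed lists were thus lower in TL2i cells, whereas the naive list had no such majority. Of POU5F1, NANOG, SOX2, and LIN28A, taken as markers of the labelled cell type, all 4 were well above the floor in primed cells. In TL2i cells NANOG was near the floor and POU5F1 low, at the values given above, so at the RNA level these 2 markers go against the label, while SOX2 and LIN28A were still present. The study also reported that TL2i cells favoured the distal OCT4 enhancer in a reporter assay.

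**Figure D2:**
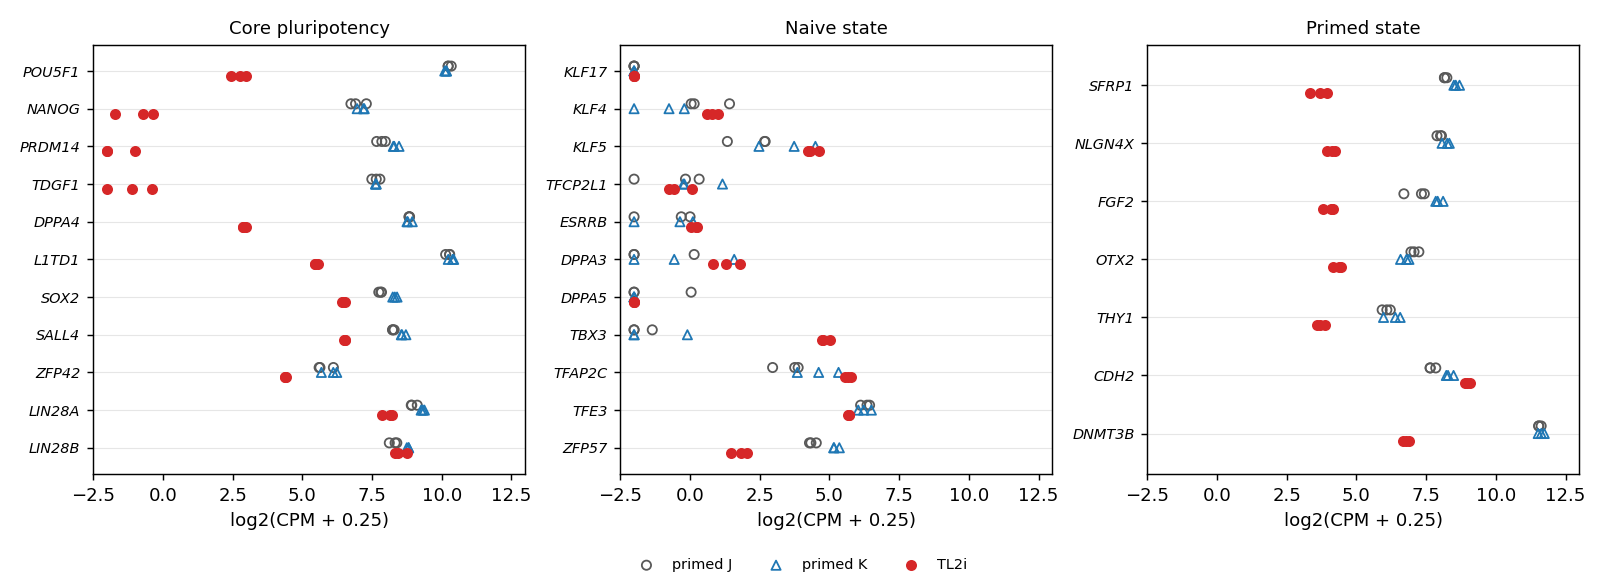
Levels in log2 of CPM plus 0.25 of core pluripotency, naive-state, and primed-state genes in the 9 libraries, with 1 point per library (open circles primed J, open triangles primed K, filled circles TL2i). POU5F1 and NANOG lie far to the left in TL2i cells, SOX2 and LIN28A less far, and KLF4, TFCP2L1, and ESRRB overlap between the groups.

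Genes under the control of ERK, the kinase below MEK, were lower for the most part. Of 23 ERK targets and feedback inhibitors tested, 17 were called lower and 3 higher (median -1.76). ETV4, a transcription factor induced by FGF, was at 146 to 217 CPM (median 180) in primed and 1.52, 0.583, and 1.13 CPM in TL2i libraries (log2 fold change -7.36 ± 0.26 (SE), adjusted p = 5.3e-11). EGR1, an immediate early gene, stood at 1107 to 1772 CPM (median 1489) and 42.6, 35.3, and 29.4 CPM (log2 fold change -5.34 ± 0.20 (SE), adjusted p = 9.5e-11). SPRY4, an inhibitor of receptor tyrosine kinase signals, fell from a primed range of 251 to 488 CPM (median 407) to 15, 15.5, and 13.2 CPM (log2 fold change -4.73 ± 0.21 (SE), adjusted p = 6.6e-10). In all 3 the highest TL2i library lay far below the lowest primed one. DUSP6, the ERK phosphatase, fell by 3.46, the FGF antagonist IL17RD by 3.72, ETV1 by 4.24, SPRY1 by 3.15, SPRY2 by 2.94, and FOS by 2.64 on the log2 scale. Members that rose were the ephrin receptor EPHA4 (3.25), CCND1 (0.80), and DUSP7 (0.57), the last a call lost without primed replicate K2 or any 1 TL2i library and against the J libraries alone. FOSL1 was not called, nor was DUSP4, which was lower against the K libraries alone. The kinases and adaptors of the cascade itself showed no common direction, with 3 of 18 higher, 6 lower, and a median of 0.01 (6 higher and 5 lower against the J libraries alone, and 5 higher and 6 lower with all 8 groups in the fit). Of the drug's targets, MAP2K1, which encodes MEK1, fell by 1.21 and MAP2K2, which encodes MEK2, was not called (log2 fold change 0.01 ± 0.09 (SE), adjusted p = 0.97).

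Wnt targets moved the other way. Of 22 found, 21 were tested, 15 were called higher and 1 lower (median 2.52). Of the 10 with at least 10 counts in every library, 8 were higher and 1 lower. AXIN2, the scaffold that limits β-catenin and the usual readout of the pathway, was counted at 396, 394, and 365 CPM in the TL2i libraries and at 4.43 to 10.6 CPM (median 6.75) in primed cells (log2 fold change 5.76 ± 0.16 (SE), adjusted p = 9.5e-12). LEF1, a DNA-binding partner of β-catenin, was at 171, 142, and 143 CPM against 0 to 0.887 CPM (median 0) (log2 fold change 9.81 ± 0.46 (SE), adjusted p = 8.6e-10). NKD1, a feedback inhibitor, was at 85.8, 81.5, and 89.3 CPM against 2.01 to 4.11 CPM (median 2.54) (log2 fold change 4.95 ± 0.21 (SE), adjusted p = 3.9e-10). LEF1 was thus nearly undetected in primed cells and present in each TL2i library. The secreted antagonists DKK1 (28, 54.6, and 29.8 CPM) and NOTUM (8.68, 14.9, and 14.1 CPM), the factor SP5 (21.1, 14.2, and 18.4 CPM), and MSX1 and MSX2 rose by 6.12, 6.43, 6.09, 6.73, and 8.07 on the log2 scale. WNT3A was at 34.9, 37.5, and 41.5 CPM against 0 to 0.143 CPM (median 0) (1189-fold higher by mean CPM with a counting interval of 329 to 9819, adjusted p = 6.5e-10), and CDX2, a caudal homeobox gene, at 3.14, 5.07, and 6.08 CPM with no primed count (at least 99.5-fold higher by mean CPM, adjusted p = 0.00028). RNF43 and ZNRF3, which remove Frizzled receptors, rose by 2.43 and 1.37. T, or brachyury, at 1.18, 1.81, and 3.11 CPM against 0 to 2.35 CPM (median 0.0691), was not called (adjusted p = 0.26), but was called higher without primed replicate J1 and against the K libraries alone. Without primed replicate J3, CDX1 and LGR5 were also called higher and TCF7 lower, which made the counts 17 higher and 2 lower. The 3 were called against the K libraries alone as well, and LGR5 and TCF7 with all 8 groups in the fit. NKD2 was called lower (log2 fold change -2.04 ± 0.71 (SE), adjusted p = 0.027), a call that was lost without primed replicate J2, without any 1 of the TL2i libraries, and against the K libraries alone.

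Components of the pathway changed less than its targets. β-catenin itself, CTNNB1, was at 825, 791, and 779 CPM in TL2i and 739 to 867 CPM (median 784) in primed cells (log2 fold change 0.01 ± 0.07 (SE), adjusted p = 0.89). GSK3B, a target of the inhibitor, rose by 0.49 on the log2 scale (adjusted p = 0.0017), and GSK3A was not called (adjusted p = 0.18). TCF7L1, the repressor among the TCF factors, fell from a primed range of 260 to 320 CPM (median 291) to 59.7, 54.9, and 57.1 CPM (log2 fold change -2.35 ± 0.10 (SE), adjusted p = 3.3e-10). APC2, of the destruction complex, rose by 4.68 and the coactivators BCL9L and PYGO1 by 1.34 and 2.53. In all, 9 of 19 members were higher and 4 lower (median 0.22).

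**Figure D3:**
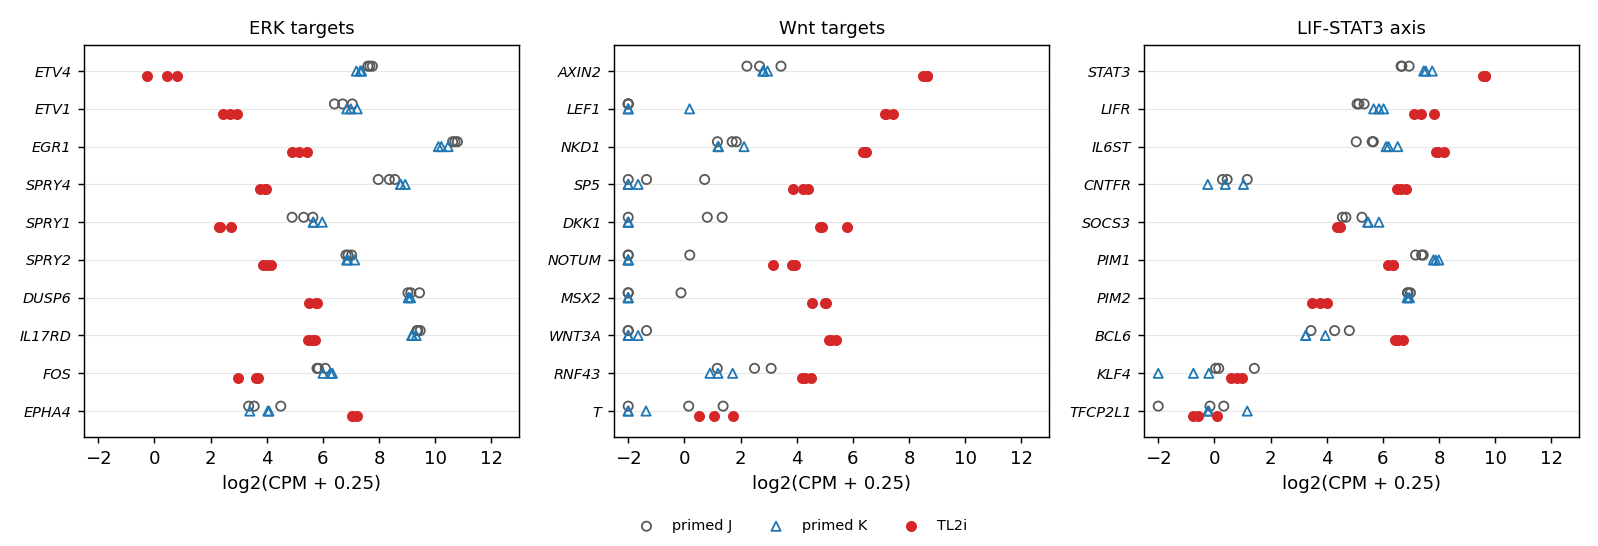
Levels in log2 of CPM plus 0.25 of ERK targets, Wnt targets, and genes of the LIF-STAT3 axis in the 9 libraries, with 1 point per library (open circles primed J, open triangles primed K, filled circles TL2i). ERK targets lie to the left in TL2i cells and Wnt targets to the right, whereas SOCS3 and KLF4 do not lie to the right with STAT3.

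On the LIF-STAT3 axis the receptors LIFR, IL6ST, and CNTFR rose and the STAT3 targets were divided. STAT3 was at 789, 787, and 762 CPM in the TL2i libraries against 100 to 216 CPM (median 148) in primed cells (log2 fold change 2.37 ± 0.20 (SE), adjusted p = 3.6e-07), a value that includes any reads of the transgene. Against the J libraries alone the log2 fold change of STAT3 was 2.86 (adjusted p = 3.5e-08) and against the K libraries alone 2.01 (adjusted p = 1.1e-08). LIFR rose from a primed range of 33.6 to 64.8 CPM (median 45.4) to 136, 227, and 163 CPM (log2 fold change 1.89 ± 0.20 (SE), adjusted p = 3.8e-06), and IL6ST, the shared signal subunit, from a primed range of 32.9 to 92 CPM (median 59.7) to 238, 290, and 249 CPM (log2 fold change 2.08 ± 0.22 (SE), adjusted p = 3.6e-06). CNTFR, the receptor of ciliary neurotrophic factor and a neural partner of the pair, rose from a primed range of 0.599 to 2 CPM (median 1.09) to 101, 89.3, and 112 CPM (log2 fold change 6.33 ± 0.24 (SE), adjusted p = 1.2e-10). Ligand-binding and signal subunits were thus more abundant in every TL2i library than in any primed one, and 50.8% of all genes tested separated the libraries. 6 of 13 genes of the axis tested were higher, STAT3 among them, and 2 lower, PTPN11 and PIAS3 (median 0.46). The calls of PTPN11 and PIAS3 were lost without any 1 TL2i library and against the J libraries alone. PIAS3 (log2 fold change -0.33 ± 0.13 (SE), adjusted p = 0.047) was also not called with DESeq2, upper-quartile scaling, thinned counts, no filter, or the filter of 10 counts, nor without primed replicate J2, J3, K1, or K2. The kinases JAK1 and TYK2 rose by 0.46 and 1.15, and JAK2 was not called (adjusted p = 0.77).

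Of 24 STAT3 targets found, 23 were tested, 7 were called higher, 8 lower, and 8 neither (median -0.34). Of the 16 with at least 10 counts in every library, 4 were higher and 9 lower. SOCS3, the feedback inhibitor that STAT3 induces, was counted at 22, 20.6, and 21.6 CPM in the TL2i libraries and 23.3 to 57.8 CPM (median 40.8) in primed cells (log2 fold change -0.86 ± 0.25 (SE), adjusted p = 0.012), a call lost against the J libraries alone. PIM1 and PIM2, kinases induced by STAT3 and other signals, fell by 1.34 and 3.17, JUNB by 0.98, and MYC, also a target of ERK and Wnt signals, by 3.18. Gains were found for BCL6, at 85.1, 106, and 93.4 CPM against 9.26 to 27.7 CPM (median 12.9) (log2 fold change 2.66 ± 0.28 (SE), adjusted p = 3.7e-06), for the astrocyte filament gene GFAP (3.73), BCL3 (3.80), CISH (1.86), IRF1 (2.48), FOSL2 (1.38), and the oncostatin M receptor OSMR (0.92). Without TL2i replicate 1, 4 in place of 7 were called higher, and the calls of BCL3, CISH, and IRF1 were lost. BCL3 was also lost without TL2i replicate 2, and IRF1 without any 1 TL2i library or primed replicate J1 or K3. KLF4 and TFCP2L1, targets tied to naive pluripotency, were not called, as given above.

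Nodal-Activin genes fell more often than they rose, whereas FGF ligands and receptors showed no common direction. Of 16 Nodal-Activin genes tested, 9 were lower and 0 higher (median -1.22), and against the K libraries alone 3 were higher and 9 lower. Against the J libraries alone and with all 8 groups in the fit 1 were higher and 10 lower. NODAL fell from a primed range of 22.3 to 56.7 CPM (median 36.6) to 1.03, 2.68, and 2.33 CPM (log2 fold change -4.23 ± 0.38 (SE), adjusted p = 7.4e-07), and FOXH1, the factor that carries SMAD2 to its targets, from a primed range of 39 to 51.3 CPM (median 40.4) to 1.72, 2.91, and 4.17 CPM (log2 fold change -3.88 ± 0.26 (SE), adjusted p = 4.2e-08). SMAD7, an inhibitor induced by the pathway, fell by 2.59 and follistatin (FST) by 1.54. The receptors ACVR1B, ACVR2A, and ACVR2B were not called. Of 14 FGF ligands and receptors tested, 3 were higher and 4 lower (median 0.04), and against the J libraries alone 5 were higher and 5 lower. The share called, 50%, was near the 50.7% of all genes tested. FGF2 fell from a primed range of 104 to 276 CPM (median 202) to 13.7, 16.7, and 17.5 CPM (log2 fold change -3.64 ± 0.28 (SE), adjusted p = 1.5e-07), FGF19 by 3.51, and FGF8 by 4.05 on the log2 scale. FGFR1, the main FGF receptor of pluripotent cells, was at 314, 368, and 366 CPM against 399 to 458 CPM (median 427) (log2 fold change -0.29 ± 0.08 (SE), adjusted p = 0.0081), a call lost without TL2i replicate 1, whereas FGFR3 rose by 1.84 and FGFR2 by 0.58.

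BMP genes rose at several levels of the pathway. Of 23 tested, 15 were higher and 2 lower (median 1.80). Of the 14 with at least 10 counts in every library, 8 were higher and 2 lower. BMP5 was at 168, 182, and 149 CPM with no count in the 6 primed libraries (at least 3474-fold higher by mean CPM, adjusted p = 1.1e-09). BMP7 was at 91.8, 99.9, and 100 CPM against 6.38 to 14.9 CPM (median 9.33) (log2 fold change 3.28 ± 0.20 (SE), adjusted p = 1.3e-08) and BMP2 at 25.3, 34.3, and 27.6 CPM against 0.0887 to 1.68 CPM (median 1.28) (log2 fold change 4.88 ± 0.49 (SE), adjusted p = 2.2e-06). In each of these the TL2i libraries lay above all primed ones (50.8% of all genes tested had no overlap), and GDF7 and GDF6 rose as well (4.49 and 4.73). Antagonists rose with the ligands, NOG by 6.30, GREM1 by 3.62, and CHRD by 3.44. Of the ID genes, direct targets of BMP signals, ID2 rose by 2.43 and ID3 by 1.28, while ID1 fell by 1.22. The receptor BMPR1A was not called.

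Hedgehog and Notch genes also rose in most cases. 12 of 14 Hedgehog genes tested were higher and 1 lower (median 3.17). The coreceptors BOC, CDON, and GAS1 rose by 4.58, 2.73, and 4.19, the bifunctional effector GLI3 from a primed range of 18.6 to 47.1 CPM (median 35.5) to 444, 408, and 433 CPM (log2 fold change 3.61 ± 0.19 (SE), adjusted p = 3.1e-09), and the receptor and target PTCH1 by 1.65, whereas GLI2 fell by 1.08 and GLI1, the target most often used as a readout, was not called (adjusted p = 0.39). The ligand IHH was at 8.38, 15.6, and 12.3 CPM with no primed count (at least 253-fold higher by mean CPM, adjusted p = 1.3e-05). Among Notch genes 12 of 18 were higher and 1 lower (median 1.04), led by the ligand DLL1 (4.41), the effector HEYL (2.59), and the receptor NOTCH2 (2.13), and HES1 was not called (adjusted p = 0.85). Of the 14 Notch genes with at least 10 counts in every library, 9 were higher and 2 lower. Of 13 retinoic acid genes tested, 6 were higher and 4 lower (median 0.70), and without TL2i replicate 1 5 were higher and 2 lower. Against the J libraries alone 6 were higher and 2 lower. CRABP2 rose from a primed range of 40.4 to 61.4 CPM (median 49.4) to 590, 376, and 508 CPM (log2 fold change 3.27 ± 0.14 (SE), adjusted p = 4.5e-10), ALDH1A1, which makes retinoic acid, was at 13.9, 21.3, and 17.8 CPM against 0 to 0.755 CPM (median 0) (log2 fold change 7.13 ± 0.87 (SE), adjusted p = 1.4e-05), and CYP26A1, which degrades it, was lower (log2 fold change -0.92 ± 0.24 (SE), adjusted p = 0.006), a call lost against the J libraries alone.

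Most of the tested genes that pattern the neural tube rose, many of them from few or no primed counts. Of 36 found, 26 passed the filter, 17 were called higher and 2 lower, and the median was 6.33, or 5.94 with genes at 0 in primed cells set to their bound. 5 had at least 10 counts in every library, of which 1 was higher and 2 were lower, so the count of gains rests on genes with few primed counts. Against the K libraries alone, and without primed replicate J2, 4 were lower. Genes of the dorsal midline were among those that rose. WNT1 was at 83.9, 85.4, and 96.1 CPM against 0 to 1.4 CPM (median 0) (log2 fold change 7.80 ± 0.57 (SE), adjusted p = 8e-08). LMX1A, a factor of the roof plate, was at 50.2, 46.5, and 51.6 CPM against 0 to 1.33 CPM (median 0) (log2 fold change 7.54 ± 0.67 (SE), adjusted p = 5.7e-07). PAX3, of the dorsal neural tube and crest, was at 115, 92.1, and 107 CPM against 0 to 4.43 CPM (median 1.57) (log2 fold change 5.98 ± 0.48 (SE), adjusted p = 2.5e-07). For each of the 3 the lowest TL2i library lay far above the highest primed one. PAX7 was at 42.9, 39.6, and 48.1 CPM with no primed count (at least 909-fold higher by mean CPM, adjusted p = 6.2e-08). ZIC1 rose from a primed range of 0 to 2.05 CPM (median 0.708) to 208, 154, and 190 CPM (log2 fold change 7.82 ± 0.36 (SE), adjusted p = 7.1e-10), and ZIC4 was at 63, 63.5, and 64.3 CPM against 0 to 0.143 CPM (median 0) (1992-fold higher by mean CPM with a counting interval of 551 to 16449, adjusted p = 6.3e-11). OTX2, of the forebrain and midbrain, fell by 2.62, SIX3 had no count in the 9 libraries, and PAX6 was not called (adjusted p = 0.33).

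HOX genes differed by position in their clusters. Of 11 anterior members found (paralog groups 1 to 4), 7 were tested, 6 were higher and 0 lower, or 1 lower against the K libraries alone (median 4.80). Of the anterior members 1 had at least 10 counts in every library and was higher, and of the posterior ones 0 had. HOXB2 was at 79, 64.8, and 77.2 CPM against 2.16 to 3.81 CPM (median 2.42) (log2 fold change 4.80 ± 0.19 (SE), adjusted p = 1.7e-10), HOXB3 at 32.1, 36.3, and 40.3 CPM against 0 to 3.8 CPM (median 0.429) (log2 fold change 5.26 ± 0.77 (SE), adjusted p = 6.8e-05), and HOXA2 at 25.5, 19.3, and 26.3 CPM against 0 to 0.622 CPM (median 0) (log2 fold change 7.20 ± 0.71 (SE), adjusted p = 1.7e-06). These mark the hindbrain in embryos. Of 27 more posterior members found, 11 were tested, 0 were higher and 6 lower (median -2.67). HOXC6 was at 0.441, 1.63, and 0.141 CPM against 2.35 to 11.3 CPM (median 4.58) (log2 fold change -2.92 ± 0.81 (SE), adjusted p = 0.0083), and HOXB8 fell by 4.40 and HOXD10 by 2.80. All of these were low in both groups. Without TL2i replicate 1 or 3, 3 in place of 6 were called lower.

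**Figure D4:**
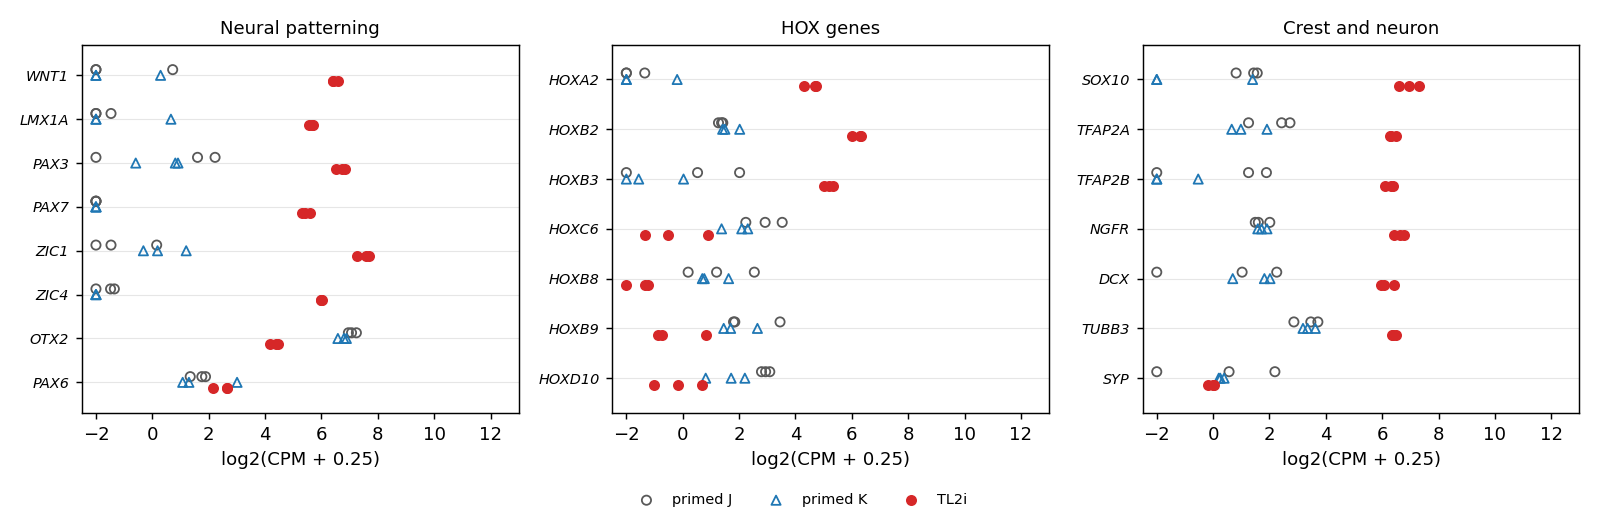
Levels in log2 of CPM plus 0.25 of neural patterning, HOX, neural crest, and neuronal genes in the 9 libraries, with 1 point per library (open circles primed J, open triangles primed K, filled circles TL2i). Dorsal genes such as WNT1 and PAX7 and the anterior HOX genes lie to the right in TL2i cells, OTX2 and the posterior HOX genes to the left.

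Neural progenitor, neuron, and crest genes were also higher for the most part. Among progenitor genes 11 of 16 tested were higher and 2 lower (median 1.80). Of the 10 with at least 10 counts in every library, 6 were higher and 2 lower. NES, which encodes nestin and is abundant in both states, was at 2283, 2328, and 2469 CPM against 2218 to 2562 CPM (median 2475) (log2 fold change -0.05 ± 0.06 (SE), adjusted p = 0.56). The intermediate filament VIM rose by 1.40, ZBTB16 by 6.50, RFX4 by 5.61, and LIX1 by 5.04, and PTPRZ1 and PROM1 fell by 2.19 and 1.47. Of 28 proneural and neuronal genes found, 24 were tested, 14 were higher and 2 lower (median 2.12). Of the 8 with at least 10 counts in every library, 4 were higher and 2 lower. DCX, a microtubule protein of young neurons, was at 85.9, 67, and 62.3 CPM against 0 to 4.53 CPM (median 2.53) (log2 fold change 4.81 ± 0.45 (SE), adjusted p = 9e-07), and TUBB3 at 81.3, 82.7, and 89 CPM against 7.04 to 12.9 CPM (median 10.4) (log2 fold change 3.04 ± 0.17 (SE), adjusted p = 5.8e-09). Both were higher in every TL2i library than in any primed one, a separation found in 50.8% of all genes tested. INSM1, at 9.41, 10.4, and 14.6 CPM, and NEUROD4, at 2.4, 3.44, and 3.32 CPM, had no primed count. The synaptic vesicle gene SYP was at 0.637, 0.757, and 0.778 CPM and not called (adjusted p = 0.49), and RBFOX3 fell by 1.81. STMN2, ELAVL3, ELAVL4, NEFL, and SNAP25, taken as neuron markers with DCX, TUBB3, and SYP, are not reported here.

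Of 19 neural crest genes, 15 were higher and 1 lower (median 2.84). SOX10, a defining factor of migrating crest, was at 158, 97.5, and 123 CPM against 0 to 2.71 CPM (median 1.95) (log2 fold change 6.51 ± 0.54 (SE), adjusted p = 3.1e-07). TFAP2A was at 89.9, 77.8, and 78.4 CPM against 1.33 to 6.37 CPM (median 2.83) (log2 fold change 4.62 ± 0.35 (SE), adjusted p = 1.1e-07), and the neurotrophin receptor NGFR at 108, 86.2, and 98 CPM against 2.57 to 3.78 CPM (median 2.92) (log2 fold change 4.97 ± 0.16 (SE), adjusted p = 2.3e-11). None of the 3 overlapped between the groups, nor did 50.8% of all genes tested. TFAP2B rose by 6.45, EDNRB by 5.03, SOX9 by 3.00, and SNAI2 by 2.62. FOXD3, used by both crest and pluripotent cells, was called higher (log2 fold change 0.55 ± 0.21 (SE), adjusted p = 0.042), a call lost without any 1 TL2i library, without primed replicate J1, J2, K2, or K3, against the J libraries alone, with all 8 groups in the fit, and with thinned counts. TWIST1 and MITF were not called, and SNAI1 fell by 1.10.

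Epithelial junction genes fell more often than they rose against primed cells, with 10 of 23 lower and 3 higher (median -0.65), although against the K libraries alone 7 were higher and 8 lower. The share called, 56.5%, was near the 50.7% of all genes tested. EPCAM fell from a primed range of 147 to 207 CPM (median 177) to 37.2, 68.9, and 47.5 CPM (log2 fold change -1.77 ± 0.18 (SE), adjusted p = 1.9e-06). The splicing regulators ESRP1 and ESRP2, which keep epithelial isoforms, fell by 3.68 and 3.43, and the junction genes CLDN6 and OCLN by 1.98 and 1.43. CDH1, which encodes E-cadherin, was at 22.9, 36.4, and 30.8 CPM against 30.6 to 108 CPM (median 66.1) (log2 fold change -1.20 ± 0.34 (SE), adjusted p = 0.01), a call lost without TL2i replicate 1 and against the K libraries alone. Keratin KRT8 and claudin CLDN4 rose by 1.16 and 4.73, and DSP and CDH3 were not called. Among mesenchymal genes 11 of 20 were higher and 3 lower (median 0.56). Fibronectin (FN1) rose from a primed range of 786 to 1652 CPM (median 1241) to 4841, 9271, and 6536 CPM (log2 fold change 2.45 ± 0.21 (SE), adjusted p = 3.8e-07), ACTA2 by 3.14, TGFB2 by 2.83, and ZEB1 and ZEB2, repressors of CDH1, by 1.22 and 1.19. TWIST2 and SNAI1 fell by 3.77 and 1.10.

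Endoderm genes were higher for the most part. Of 19 tested, 13 were called higher and 4 lower (median 2.77). Of the 6 with at least 10 counts in every library, 4 were higher and 2 lower. SOX17 was at 15.5, 28.3, and 22.9 CPM against 0 to 2.48 CPM (median 0) (log2 fold change 5.74 ± 0.98 (SE), adjusted p = 0.00027). GATA6 was at 14.1, 22.8, and 18.7 CPM against 0 to 7.29 CPM (median 0.447) (log2 fold change 3.54 ± 1.06 (SE), adjusted p = 0.013), a call lost without TL2i replicate 2 and with DESeq2. HNF4A, of visceral endoderm and liver, was at 12.1, 21, and 17 CPM with no primed count (at least 348-fold higher by mean CPM, adjusted p = 3.7e-06). TL2i replicate 2 was the highest in each of these. The basement membrane genes LAMA1, COL4A1, and NID2 were abundant and rose by 2.71, 2.65, and 3.83, and the apolipoprotein gene APOA1 rose from a primed range of 9.06 to 16.8 CPM (median 12.8) to 129, 220, and 179 CPM (log2 fold change 3.80 ± 0.19 (SE), adjusted p = 2.2e-09). The liver protein gene AFP was at 0.098, 0.291, and 0.0707 CPM in TL2i cells, EOMES fell by 5.39, and FOXA2 was not called (adjusted p = 0.062) but was called higher with DESeq2, without primed replicate J2 or J3, and against the K libraries alone. Trophoblast and amnion genes were 8 higher and 2 lower of 15 tested among 21 found (median 2.30), and 5 were called higher without TL2i replicate 2. Of the 7 with at least 10 counts in every library, 3 were higher and 2 lower. GABRP, a GABA receptor subunit of amnion and other epithelia, was at 54.6, 93.3, and 66.6 CPM with no primed count (at least 1493-fold higher by mean CPM, adjusted p = 4.2e-08), and VTCN1 fell by 4.06. Of the genes taken as trophoblast markers, CGA, VGLL1, GCM1, and TP63 were below 1 CPM in each TL2i library. The markers GATA3 and KRT7 are not reported here, so the panel as a whole was not read. Mesoderm genes showed no common direction, with 2 of 15 higher, 3 lower, and against the K libraries alone 4 higher and 3 lower. The filter of 10 counts left 2 mesoderm genes, 0 higher and 1 lower.

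Fibroblast markers were read as a check on other cells in the cultures. 11 of 17 were higher and 4 lower (median 1.05), or 8 higher and 2 lower of 11 with the filter of 10 counts, and their summed level was 4147 to 7487 CPM in TL2i and 1485 to 3062 CPM in primed libraries. The collagen gene COL1A1 was at 1487, 3290, and 2446 CPM against 653 to 1808 CPM (median 1371) (log2 fold change 0.90 ± 0.27 (SE), adjusted p = 0.014), a call lost without TL2i replicate 2 and against the J libraries alone. COL3A1 rose by 2.79, COL6A3 by 3.88, and COL1A2 by 1.49. The defining stromal gene DCN was at 4.02, 7.57, and 5.59 CPM and LUM at 8.68, 15.4, and 9.62 CPM, both with no primed count, whereas THY1 and S100A4 fell by 2.50 and 6.05 and FAP was not called. TL2i replicate 2 was the highest for COL1A1, COL3A1, FN1, SOX17, HNF4A, and GABRP, and the part of other cells in these results was not tested.

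Genes of DNA methylation did not change alike. DNMT3B, a de novo methyltransferase abundant in primed cells, fell from a primed range of 2936 to 3412 CPM (median 3071) to 110, 102, and 118 CPM (log2 fold change -4.82 ± 0.09 (SE), adjusted p = 1.1e-13). DNMT3A fell from a primed range of 347 to 400 CPM (median 380) to 132, 135, and 130 CPM (log2 fold change -1.51 ± 0.08 (SE), adjusted p = 5.1e-09). DNMT1 and UHRF1, which copy methylation at replication, were not called (adjusted p = 0.89 and adjusted p = 0.83). DNMT3L, which naive primate cells express, held at most 0.0583 CPM in TL2i cells. TET1 fell by 1.16, TET2 rose by 1.68, and TET3 was not called. Of 14 tested, 2 were higher and 6 lower. JARID2, a polycomb cofactor, fell from a primed range of 623 to 753 CPM (median 708) to 92.3, 86.3, and 90.8 CPM (log2 fold change -2.97 ± 0.09 (SE), adjusted p = 1.7e-11), BMI1 rose by 1.91, and CBX8 by 2.41, while CBX7 fell by 1.09 and SUZ12 was not called. Among polycomb genes as a whole 9 were higher and 8 lower of 21, and among BAF subunits 4 were higher and 8 lower of 19, with DPF3 up by 5.40 and BCL11A down by 4.25.

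Growth genes of the MYC and let-7 axis fell in most cases. 12 of 17 genes of the MYC and let-7 list were lower and 3 higher (median -0.72). MYC dropped from a primed range of 326 to 382 CPM (median 355) to 40.1, 40.8, and 37.1 CPM (log2 fold change -3.18 ± 0.10 (SE), adjusted p = 1.4e-11), the nucleolar genes NCL and NPM1 by 1.28 and 0.83, HMGA1 by 1.67, and TRIM71 by 1.45, whereas MYCN rose by 0.68 and IGDCC3 by 2.06.

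Of 16 cyclins and kinases of the G1 and S phases tested, 4 were higher and 5 lower (median -0.17), or 3 higher and 3 lower without TL2i replicate 2 or 3. CCND1 was at 359, 303, and 345 CPM against 132 to 242 CPM (median 194) (log2 fold change 0.80 ± 0.16 (SE), adjusted p = 0.0011) and CCND2 at 820, 786, and 816 CPM against 379 to 565 CPM (median 456) (log2 fold change 0.77 ± 0.12 (SE), adjusted p = 9.5e-05). CCNE1 was lower, at 47.2, 37.5, and 46 CPM against 85.6 to 111 CPM (median 99.1) (log2 fold change -1.17 ± 0.12 (SE), adjusted p = 3.4e-06). CCND1 and CCND2 were thus higher and CCNE1 lower in every TL2i library than in any primed one, a separation found in 50.8% of all genes tested. CCNA2 fell by 0.30, a call lost without TL2i replicate 2 or 3 and against the J libraries alone. CDK2 rose by 0.46, CDK4 was not called (adjusted p = 0.18), and CCND3 was not called (adjusted p = 0.43) but was lower against the K libraries alone. Of 15 CDK inhibitors and RB family genes tested, 4 were higher, 1 lower, and 10 not called. The share called, 33.3%, was below the 50.7% of all genes tested, and without any 1 TL2i library 2 were higher. Of the inhibitors, CDKN1A, which encodes p21, was at 36.6, 31.4, and 29.1 CPM against 2.66 to 14.8 CPM (median 5.67) (log2 fold change 2.23 ± 0.41 (SE), adjusted p = 0.00044), and CDKN1B, which encodes p27, at 40.6, 35.7, and 33.5 CPM against 9.38 to 27.6 CPM (median 22.4) (log2 fold change 0.87 ± 0.31 (SE), adjusted p = 0.029), the last a call lost without any 1 TL2i library. In the BCL2 family 2 of 15 genes tested were higher, 4 lower, and 9 not called, so 40% were called. With the filter of 10 counts 4 were higher and 2 lower of 14. The BH3-only gene BMF rose from a primed range of 8.73 to 19 CPM (median 15) to 88.9, 80.5, and 93.6 CPM (log2 fold change 2.60 ± 0.18 (SE), adjusted p = 6.4e-08) and BCL2L2 by 1.06. PMAIP1, which encodes the BH3-only protein NOXA, fell from a primed range of 17.3 to 33.3 CPM (median 29.4) to 1.81, 1.86, and 1.63 CPM (log2 fold change -3.96 ± 0.28 (SE), adjusted p = 6.4e-08). MCL1 was lower (log2 fold change -0.48 ± 0.12 (SE), adjusted p = 0.0038), a call lost against the J libraries alone, and BCL2 (adjusted p = 0.26), BCL2L1, and BAK1 were not called.

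Metabolic lists did not share a direction. For glycolysis 4 of 21 genes were higher and 8 lower (median -0.13), and against the K libraries alone 8 were higher and 6 lower. The glucose transporter SLC2A1 fell by 1.13 and SLC2A3 rose by 0.93, HK2 fell by 1.10, the lactate exporter SLC16A1 by 1.31, and LDHB by 1.06, and ENO1 was not called, nor was LDHA (adjusted p = 0.43), which was higher against the K libraries alone. Of 42 respiratory chain genes 1 was higher and 19 lower, with a median of -0.29, and 12 in place of 19 were lower without TL2i replicate 3, and 2 in place of 1 higher without primed replicate K1. The largest of these losses were in NDUFV2 (-1.37), NDUFB10 (-1.06), and NDUFA4 (-1.02). Of 23 genes of cholesterol metabolism 14 were higher and 1 lower (median 0.51), with the synthesis gene HMGCS1 up by 0.98. Without 1 TL2i library 11 to 13 were higher and 0 lower, against the J libraries alone 11 were higher and 2 lower, and against the K libraries alone 17 were higher and 0 lower. Genes of the ATF4 response were 11 lower and 5 higher of 18 (median -0.73), among them the amino acid transporters SLC7A3 and SLC7A5, which fell by 2.46 and 1.66, and SLC7A11, ATF3, and DDIT4, which rose by 1.94, 2.33, and 2.49.

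TL2i cells were also compared with the mean of NHSM-v, 4i/L/b, t2iLGöY, and LCDM (EPS), 12 libraries. This mean is taken over the fitted log levels of the 4 protocols, not over their CPM. A protocol with few or no counts of a gene therefore makes the log2 fold change large, and the levels by protocol should be read beside it. In the study's principal-component analysis these 4 protocols lay on the same side as TL2i. TL-CDK8i and E-NHSM cells, described at the end, were left out, so the comparison does not set TL2i cells apart from them. The TL2i libraries are those of the comparison above. 7077 of 14233 genes tested differed (49.7%), 3892 higher in TL2i cells (27.3%) and 3185 lower (22.4%), with a median of 0.06. In 2201 of them every TL2i library lay outside the range of the 12 others, a property of 15.6% of all genes tested. Genes with the largest differences of this kind were LIN28A, NID2, SLC2A3, FRZB, H19, STRA6, and ADAMTS19 among those higher, and SCG2, BCL11B, BCL11A, CACNG4, PENK, PCSK1N, PCDHB2, and BRINP1 among those lower. LIN28A, the RNA-binding protein that blocks let-7, was at 271 ± 35.2 CPM (SD, n = 3) in TL2i cells, 42.5 ± 1.58 in 4i/L/b, and at most 7.1 ± 1.18 in the other 3 (log2 fold change 5.52 ± 0.10 (SE), adjusted p = 3.3e-24). H19 was at 165 ± 14.9 CPM in TL2i and 82.1 ± 20.2 in 4i/L/b cells, and no higher than 9.09 ± 1 in the others (log2 fold change 4.02 ± 0.11 (SE), adjusted p = 1e-19). STRA6, a receptor for retinol-binding protein, followed the same order, with 87.7 ± 10.7 CPM in TL2i and 45.9 ± 7.81 in 4i/L/b cells (log2 fold change 3.91 ± 0.18 (SE), adjusted p = 2.5e-15). 4i/L/b cells were thus the nearest of the 4 for these genes. FRZB, a secreted Wnt antagonist, stood at 118 ± 30 CPM against 15.5 ± 2.11 or less (log2 fold change 4.02 ± 0.18 (SE), adjusted p = 8.6e-16).

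Core pluripotency genes were higher in TL2i cells than in the mean of these 4 protocols in most cases. POU5F1 and NANOG were higher still in TL-CDK8i and E-NHSM cells, as given at the end. Of 13 core pluripotency genes tested there, 11 were higher and 2 lower (median 2.68). Of the 7 with at least 10 counts in every library, 5 were higher and 2 lower. ZFP42 was at 20.8 ± 0.121 CPM in TL2i cells (log2 fold change 6.72 ± 0.36 (SE), adjusted p = 9.9e-13) and SALL4 at 90.9 ± 1.72 (log2 fold change 2.40 ± 0.16 (SE), adjusted p = 2.8e-12). POU5F1 was also higher (log2 fold change 2.68 ± 0.52 (SE), adjusted p = 0.00011), but at 6.44 ± 1.28 CPM it was far below the primed level of 1182 ± 67 (SD, n = 6). SOX2 and FOXO1 were lower (-0.52 and -0.39 on the log2 scale), FOXO1 not without TL2i replicate 2. NANOG, PRDM14, and TDGF1 did not pass the filter in these 15 libraries.

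Epithelial genes, of which 10 fell against primed cells, were higher than in the mean of these 4 protocols. 20 of 21 tested were higher and 0 lower (median 3.46). Of the 7 with at least 10 counts in every library, 7 were higher and 0 lower. CDH1 was at 30.1 ± 6.77 CPM in TL2i cells and at most 2.65 ± 0.479 in the others (log2 fold change 7.44 ± 0.34 (SE), adjusted p = 8e-15), EPCAM at 51.2 ± 16.2 against at most 10.4 ± 2.3 (log2 fold change 5.13 ± 0.25 (SE), adjusted p = 6.2e-15), and KRT8 at 268 ± 33.3 against at most 80.4 ± 1.55 (log2 fold change 3.46 ± 0.11 (SE), adjusted p = 1.2e-18). Endoderm and amnion genes went with them, 13 of 17 endoderm genes being higher and 4 lower (median 3.36), and 15 of 16 trophoblast and amnion genes higher and 0 lower (median 4.03). With the filter of 10 counts these were 4 higher and 2 lower of 6 and 4 higher and 0 lower of 4. APOA1 was at 176 ± 45.6 CPM (log2 fold change 7.22 ± 0.22 (SE), adjusted p = 4.2e-19), SOX17 at 22.2 ± 6.41 (log2 fold change 7.66 ± 0.50 (SE), adjusted p = 2.5e-11), and GABRP at 71.5 ± 19.9 (log2 fold change 8.87 ± 0.33 (SE), adjusted p = 1.4e-16). Mesenchymal genes were more often lower, 11 of 20 against 5 higher, with ZEB1 and CDH2 lower by 1.47 and 1.05 on the log2 scale.

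Neuronal genes showed the reverse pattern. Of 28 tested, 0 were higher in TL2i cells and 25 lower (median -2.14). TUBB3 was at 84.4 ± 4.11 CPM in TL2i cells, 291 ± 32.7 in NHSM-v, 146 ± 9.12 in 4i/L/b, 679 ± 20.3 in t2iLGöY, and 705 ± 13.7 in LCDM (EPS) cells (log2 fold change -2.16 ± 0.07 (SE), adjusted p = 1.1e-18). NEFM, a neurofilament, was at 31.7 ± 1.4 CPM against 208 ± 6.69, 207 ± 17, 313 ± 21.8, and 619 ± 7.96 in the same order (log2 fold change -3.25 ± 0.07 (SE), adjusted p = 1.6e-21). DCX was lower by 1.85 and DCC by 2.42. TUBB3 and DCX were thus above the primed level and below the mean of the 4 other protocols. Without NHSM-v replicate 3, 1 neuronal gene was called higher. Among neural patterning genes the picture was mixed, with 8 higher, 13 lower, and 10 not called. PAX7 was at 43.5 ± 4.3 CPM in TL2i cells, had no count in NHSM-v cells, and was at 3.56 ± 1.22 in 4i/L/b, 16.4 ± 5.7 in t2iLGöY, and 68.1 ± 8.02 CPM in LCDM (EPS) cells (log2 fold change 4.16 ± 0.23 (SE), adjusted p = 3.7e-13). Its order was thus not TL2i above all others, and the absence of counts in NHSM-v cells raises this log2 fold change. The crest factor SOX10 was higher by 3.59, while IRX1 and PAX6 were lower by 3.11 and 2.59.

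Differences were also present in ERK targets, Wnt targets, and the LIF-STAT3 axis. The make-up of the media of the 4 protocols is not given here, and the part of the TL2i agents was not tested. ERK targets were 15 lower and 5 higher of 23 (median -0.28), with ETV4 and IL17RD lower by 3.12 and 2.39 and DUSP5 higher by 2.27. Wnt targets were 15 higher and 3 lower of 21 (median 0.96; 15 higher and 1 lower with all 8 groups in the fit and 9 higher and 3 lower of 14 with the filter of 10 counts), with AXIN2 at 385 ± 17 CPM against 267 ± 8.25, 220 ± 10.9, 290 ± 12.4, and 146 ± 2.89 in NHSM-v, 4i/L/b, t2iLGöY, and LCDM (EPS) cells (log2 fold change 0.79 ± 0.05 (SE), adjusted p = 1e-12). STAT3 was higher (log2 fold change 1.32 ± 0.04 (SE), adjusted p = 2e-18), a value that includes any reads of the transgene. BCL6 was higher by 1.26, and SOCS3 was lower by 0.44, a call lost with all 8 groups in the fit. Glycolysis genes were higher in TL2i cells in 19 of 21 cases and lower in 1 (median 1.11), led by SLC2A3, at 942 ± 216 CPM (log2 fold change 4.16 ± 0.14 (SE), adjusted p = 1.9e-18), SLC16A3 (3.42), and LDHA (2.50).

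**Figure D5:**
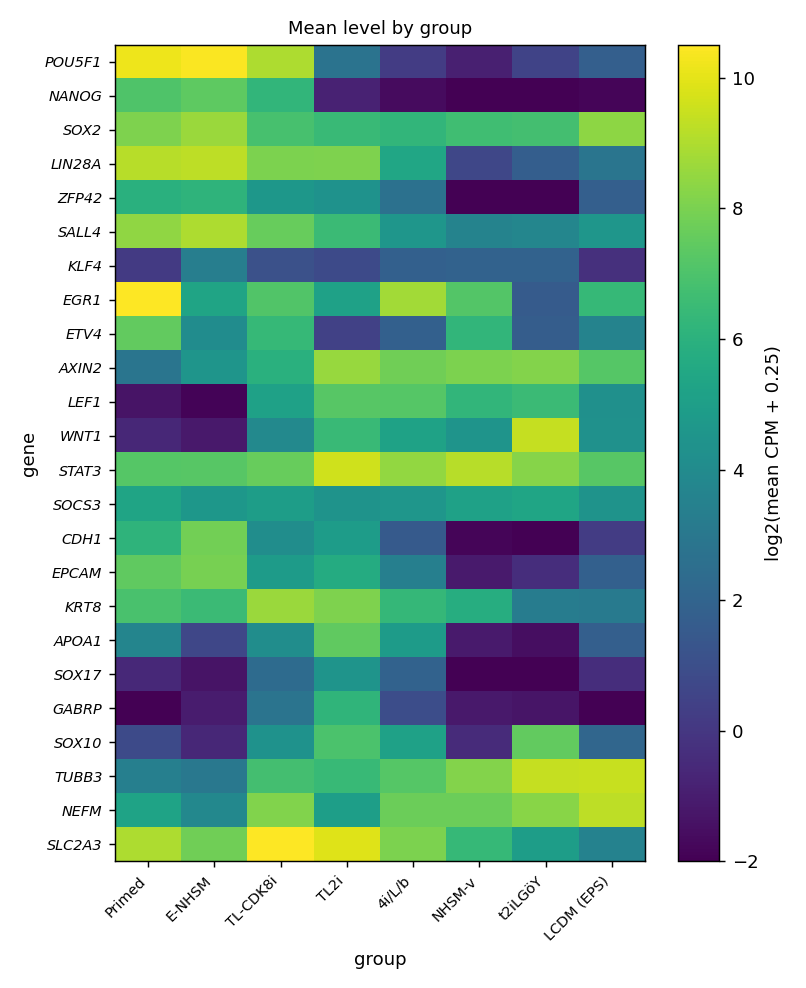
Mean level in log2 of CPM plus 0.25 of 24 genes in the 8 groups of the series, with 1 column per group (6 libraries for primed cells and 3 for each protocol), 1 row per gene, and the level given by colour. TL2i cells share with NHSM-v, 4i/L/b, t2iLGöY, and LCDM (EPS) cells the low POU5F1 and NANOG and the high AXIN2 and WNT1, and differ from them in LIN28A, ZFP42, CDH1, EPCAM, APOA1, and NEFM.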

How the data were processed

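RNA of whole cultures was sequenced with a directional mRNA kit as single reads on a NextSeq500. The authors deposited whole-number read counts per gene symbol, 17967 symbols in each table, with no normalization. The submitters' processing notes name bcl2fastq, cutadapt, HISAT2, and HTSeq; versions, genome build, and annotation are not given in the sources used here.

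Columns were matched to groups by name. Titles and protocol labels number the primed sets differently, so the letters J and K of the columns were used. Totals are given with the results, and intervals on ratios (95%, exact Poisson) and floors of 3 counts over a group cover counting error only. Replicates differed by more than counting noise (chi-square per gene from 9.19 to 30.8 in 15 primed pairs and 8.24 to 22.8 in 3 TL2i pairs), so none was merged.

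TMM scaling, filterByExpr, and the quasi-likelihood test of edgeR 4.0.16 in R 4.3.3 were run on the counts of the 9 libraries, and on 15 libraries for the 4 other protocols with equal weight per protocol on the log scale, with Benjamini-Hochberg adjustment over all genes tested. DESeq2 1.42.0, other scalings and filters, the J or K libraries alone, the replicate number as a block, and leaving out each library were alternatives. On simulated counts for the first comparison (13387 genes) the test recovered 88% of genes given a log2 difference of 2 and 65% of those given 1, with 7.27% of calls false. For the second (14008 genes) these were 97%, 88%, and 8.42%. Only a small share of genes, chosen above a minimum level and moved equally often up and down, was changed in these simulations. Many more genes were called in the data, so these shares need not hold there.

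The comparison and the 40 gene lists (741 of 774 symbols found) were chosen with earlier results of these data known. Named genes are the 10 or 8 with the largest log2 fold changes each way among those called, without overlap and with an average log2 CPM of 3 or more, the leading called members of each list, the study's marker genes, and the agents' targets. Other list members, such as those not called, were chosen after their values were seen. The targeted gene check rests on ESR1 and STAT3. A few genes that this rule names are not reported here. No sequences were analysed here.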

Additional observations from a re-analysis of the deposited data

Results flagged for a closer look

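Among the 271 genes named in the comparison with primed cells and tested there, 28 (10.3%) had 1 primed library whose log2 level stood apart from the other 5 by Dixon's criterion. Chance alone passes it in about 1 in 20 groups of continuous, normally distributed values. A gene with 5 libraries at 0 passes whatever its level in the other, so these shares cannot be compared. TL2i cells, with 3 libraries, could not be examined in this way. Primed replicate J1 was the highest library for DPF3 at 0.447 CPM (others at 0 to 0.0691 CPM), MSX2 at 0.67 CPM (others all at 0), and NOTUM at 0.893 CPM (others all at 0). It was the lowest for CRB2 at 0.893 CPM (others at 4.54 to 8.63 CPM). Primed replicate J2 was the highest library for ALDH1A1 at 0.755 CPM (others all at 0), CLDN6 at 527 CPM (others at 461 to 478 CPM), SOX17 at 2.48 CPM (others at 0 to 0.0856 CPM), and SP5 at 1.4 CPM (others at 0 to 0.143 CPM). It was the lowest for ACTA2 at 29.6 CPM (others at 40.8 to 49.1 CPM). Primed replicate J3 was the highest library for CDX1 at 3 CPM (others all at 0) and DUSP6 at 695 CPM (others at 523 to 560 CPM). It was the lowest for AFP at 0 CPM (others at 6.8 to 14 CPM), BCL2L2 at 7.86 CPM (others at 25.6 to 34 CPM), DCX at 0 CPM (others at 1.37 to 4.53 CPM), PYGO1 at 0 CPM (others at 3.24 to 6.93 CPM), and TCF7 at 13.7 CPM (others at 31.5 to 51.6 CPM). Primed replicate K1 was the highest library for GREM1 at 23.1 CPM (others at 5.14 to 8.16 CPM) and SPP1 at 2807 CPM (others at 1304 to 1446 CPM). It was the lowest for DPPA2 at 5.91 CPM (others at 11.2 to 15 CPM) and PTPRZ1 at 624 CPM (others at 759 to 829 CPM). Primed replicate K2 was the highest library for GSK3A at 108 CPM (others at 79.7 to 86.7 CPM), HOXA2 at 0.622 CPM (others at 0 to 0.143 CPM), and TBX3 at 0.691 CPM (others at 0 to 0.143 CPM). It was the lowest for NR2F1 at 0.76 CPM (others at 3.24 to 4.58 CPM). Primed replicate K3 was the highest library for GDF6 at 0.798 CPM (others all at 0), HOXB2 at 3.81 CPM (others at 2.16 to 2.57 CPM), LEF1 at 0.887 CPM (others all at 0), and LMX1A at 1.33 CPM (others at 0 to 0.112 CPM). The TL2i and primed ranges overlap for AFP, CDX1, GSK3A, and TCF7 and are separate for the others.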

How the results depend on the processing

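The total counts of called genes stayed within 1.5 times their values under DESeq2, upper-quartile scaling, no filter on low counts, a minimum of 10 counts in every library, all 8 groups in the fit, thinned counts, and each library left out, and for primed cells with the J or K libraries alone. Gene lists were less stable than the totals, and the minimum of 10 counts, which leaves out genes absent from either group, cut the lists with many such genes most (neural patterning from 17 to 1 higher, endoderm from 13 to 4, proneural and neuronal genes from 14 to 4). When a log2 fold change of 1 or more in either direction was also required, 3336 genes differed from primed cells (2039 higher, 1297 lower) and 2377 from the mean of the 4 protocols (1417 higher, 960 lower). Leaving out 1 library at a time gave 5513 to 7578 genes against primed cells and 5952 to 7441 against the 4 protocols. Without a filter the median of all genes moved to 0.17 and 0.11. DESeq2 gave no adjusted p for 9 and 1 genes.

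The replicate numbers did not pair the libraries (correlations of same-numbered deviations -0.023 to 0.023 in 9 pairs and -0.035 to 0.064 in 30), and the replicate block gave 6688 and 6996 calls, without that of PIAS3 (adjusted p = 0.066) and with a call for KLF5 (adjusted p = 0.046). ESR1 turned from 0.29 (not called) to -0.71 (adjusted p = 1.4e-05) against the K libraries alone. Of the genes named, 29 of 271 and 2 of 46 gained or lost a call under at least 1 alternative. 64 sign changes were of genes called in neither fit. The causes were not tested.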

Other observations

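ESR1 varied between the other protocols as well. It stood at 1244 ± 60.1 CPM (mean ± SD, n = 3) in NHSM-v, 758 ± 32 in 4i/L/b, and 376 ± 33.2 in t2iLGöY cells. It was at or below 0.379 CPM in every LCDM (EPS) library and 0.612 CPM in every E-NHSM library. The TL-CDK8i libraries, made by a protocol that also uses tamoxifen with STAT3-ERT2, ranged from 0.111 to 35 CPM. STAT3 was at 582 ± 20.6 CPM in NHSM-v, 355 ± 8.18 in 4i/L/b, 298 ± 5.38 in t2iLGöY, 154 ± 6.03 in LCDM (EPS), 151 ± 7.39 in E-NHSM, and 195 ± 55.2 in TL-CDK8i cells. NHSM-v, 4i/L/b, and t2iLGöY, the groups with the highest ESR1 means of these 6, also had the highest STAT3 means. This order did not extend to the groups of the main comparison, by the values given above. TL2i cells had more STAT3 than any of the 6 but less ESR1 than those 3. The primed K libraries had ESR1 near the t2iLGöY level but less STAT3.

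TL-CDK8i, in which an inhibitor of CDK8 and CDK19 replaces the MEK and GSK3β inhibitors of TL2i, and E-NHSM entered no comparison above. POU5F1 was at 502 ± 95.1 CPM in TL-CDK8i and 1366 ± 31.7 in E-NHSM cells, against 6.44 ± 1.28 in TL2i cells, and NANOG at 74 ± 23.2 and 169 ± 23.9 against 0.317 ± 0.243. AXIN2 was at 60.4 ± 15.2 CPM in TL-CDK8i and 385 ± 17 in TL2i cells. AFP, a gene of liver and visceral endoderm, was at 0 to 14 CPM (median 10.7) in primed cells, with 0 in 1 of the J libraries.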
